A study of Mus musculus with 6 samples.

Results

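The fibrillar collagens are the chains that build the banded collagen fibres of connective tissue, and 10 of their genes were followed with age in mouse RPE/choroid. They were chosen by gene symbol, by a rule that uses no measured value but was set with earlier results of these data known: Col1a1, Col1a2, Col2a1, Col3a1, Col5a1, Col5a2, Col5a3, Col11a1, Col11a2 and Col24a1, 10 of the 33924 genes in the deposited table. RNA-Seq was performed on the RPE/choroid, the retinal pigment epithelium (the pigmented cell sheet behind the retina) together with the vascular choroid beneath it, which was scraped off the sclera after the front of the eye and the neural retina had been removed. All mice were wild-type C57BL/6J and labelled male, with 3 libraries from young mice (1 to 2 months by the labels) and 3 from aged mice (20 to 24 months in the titles, 22 to 24 months in the time label); the study's methods speak of males and females and of an older young group, and each sample held the tissue of 2 eyes. Ribosomal RNA was removed and no poly(A) selection was made. The table gives, for each gene, a baseMean (the mean normalised count over the 6 libraries), a fold change on the log2 scale, the standard error (SE) of that change, and a DESeq2 Wald p-value with its Benjamini-Hochberg adjusted form. It holds no value per library, so neither the depth nor the spread of single mice can be shown, and the SE is the only error available. Every fold change below is aged over young, so a negative value is lower in aged tissue; the table does not state its sign, which was read from its numbers of positive and negative calls. The mean of each age group was worked out from the baseMean and the fold change, and both it and the fold are shrunken estimates, since the SEs in the table fall at the lowest counts.

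Collagen chains wind around each other in threes into a stiff rod, which needs a glycine at the start of each glycine-X-Y repeat because no larger side chain fits at its centre. Chains are made as procollagens, modified and folded in the endoplasmic reticulum, trimmed of their end pieces outside the cell, assembled into fibrils and cross-linked by lysyl oxidases. Types I and III make up most of the fibres in soft connective tissue, and type II is the main collagen of cartilage and of the vitreous. Types V and XI are minor partners that start fibrils and limit their width, and type XXIV is a late-described relative found in bone and eye. In the eye, fibrillar collagen is laid down by fibroblasts of the choroid and above all of the sclera, and it also fills the collagen layers of Bruch's membrane under the pigment epithelium.

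The repeat that defines the family is shown by 1 exon each of 4 members, of types I, III, XI and XXIV, to set the abundant chains beside scarcer ones. Each is a coding exon of 54 bases, the exon length typical of fibrillar collagen genes, read 5′ to 3′ from the GENCODE M21 annotation of GRCm38. Capitals mark the first 2 bases of each glycine codon.
Col1a2, coding exon 27 of 52, chr6:4524117-4524170, plus strand: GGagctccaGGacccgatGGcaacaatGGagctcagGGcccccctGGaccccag
Col3a1, coding exon 26 of 51, chr1:45334761-45334814, plus strand: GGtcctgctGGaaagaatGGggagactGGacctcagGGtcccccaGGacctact
Col11a2, coding exon 38 of 66, chr17:34057620-34057673, plus strand: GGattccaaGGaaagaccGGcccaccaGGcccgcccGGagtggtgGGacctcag
Col24a1, coding exon 26 of 60, chr3:145431857-145431910, plus strand: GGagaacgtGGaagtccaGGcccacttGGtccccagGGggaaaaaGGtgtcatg
All 4 exons open with a glycine codon and hold 18 codons, so 1 exon encodes 6 repeats. The longest unbroken run of the repeat was 338 triplets in Col1a1, 339 in Col1a2, Col2a1 and Col5a2, and 344 in Col3a1. It was 338 triplets in Col5a1, Col11a1 and Col11a2 and 337 in Col5a3, but 216 in Col24a1, whose helix is interrupted. Exons of 54 bases numbered 21 of 51 coding exons in Col1a1 and 31 of 66 in Col11a2.

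All 10 fibrillar collagen mRNAs were lower in aged RPE/choroid, by 2.33 to 7.53 times. The test called 9.92% of the 18636 genes with an adjusted p lower in aged tissue at an adjusted p under 0.05, and 10 of the 10 members, which had been picked with earlier results known. The median log2 fold change of the members was -1.77, a 3.40-fold lower level, against -0.01 over all genes tested. Among genes with a baseMean of at least 100, where every member lies, 8.65% were called lower and the median was 0.06. The SE of the members ran from 0.13 to 0.28. For 8 of the 10 the whole 95% Wald interval lay below -1, a 2-fold lower level, and those 8 also passed a DESeq2-style Wald test against a log2 fold change of 1 in size, which 0.263% of all genes tested passed in that direction. Col2a1 and Col5a3 did not pass it. In RNA from whole tissue, fewer cells that make a transcript and less transcript per cell cannot be told apart.

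**Figure D1:**
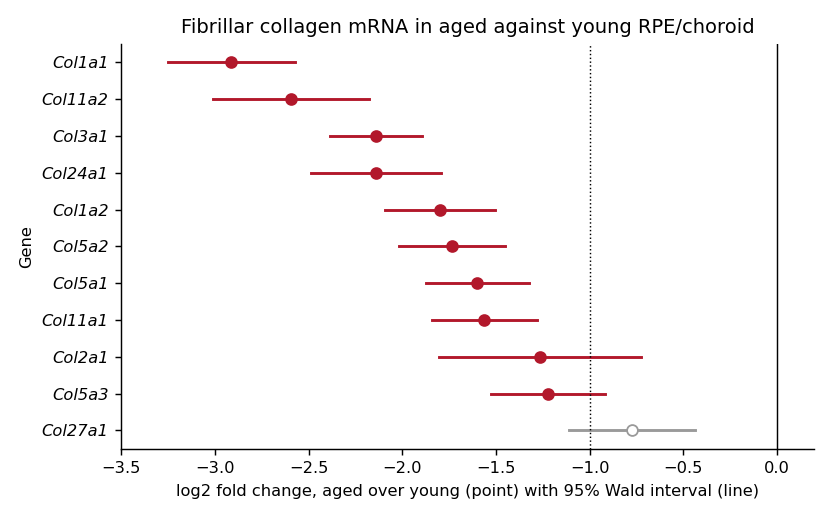
The x axis gives the log2 fold change of aged over young (point) with its 95% Wald interval (line) for each fibrillar collagen gene on the y axis, and the dotted line marks a 2-fold lower level. All 10 members (filled) lie left of 0, from -2.91 for Col1a1 to -1.22 for Col5a3, and Col27a1 (open), a related chain outside the chosen genes, lies at -0.77.

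Type I collagen, the chief fibre of sclera, skin and bone, is built of 2 alpha 1 chains and 1 alpha 2 chain. Col1a1 encodes the alpha 1 chain (chr11:94936224-94953042, plus strand, 51 coding exons). Its worked-out mean was 80949.5 normalised counts in young and 10746.5 in aged tissue. With a log2 change of -2.91 (SE 0.17, adjusted p = 1.31e-60, DESeq2 Wald test) this was a 7.53-fold lower level, with a 95% interval of 5.95 to 9.53. Col1a2, the alpha 2 chain (chr6:4504814-4541544, plus strand, 52 coding exons), went from 100279 to 28844.9 normalised counts, a log2 change of -1.80 (SE 0.15, adjusted p = 7.41e-31, DESeq2 Wald test). The alpha 1 chain therefore fell further than its partner. The difference between the log2 fold changes was -1.12, with a 95% interval of -1.56 to -0.67 if the errors are taken as independent. Per kb of transcript, Col1a1 stood at 0.728 of Col1a2 in young and at 0.336 in aged tissue. The study's methods name TPM, a unit divided by transcript length, as the starting unit, so the table's values may already be per length; undivided, the ratio was 0.807 in young and 0.373 in aged tissue.

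Type III collagen, made of 3 identical chains and common in stretchable tissues and vessel walls, is encoded by Col3a1 (chr1:45311538-45349706, plus strand). Its worked-out mean was 57962.4 normalised counts in young and 13169.8 in aged tissue, with a log2 change of -2.14 (SE 0.13, adjusted p = 1.22e-62, DESeq2 Wald test). This was the smallest SE of the 10 members. Col3a1 fell less than Col1a1, by a difference of 0.78 between the log2 fold changes in size (Col1a1 minus Col3a1 -0.78, 95% interval -1.19 to -0.36). Against Col1a2 the interval of the difference held 0, with -0.34 (-0.72 to 0.04).

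Per length or undivided, these 3 mRNAs dominated the family. The transcripts of the members are 5.10 to 8.41 kb long, and baseMean per kb was 12072.2 for Col1a2, 7731.53 for Col1a1 and 6392.18 for Col3a1. The next member, Col5a2, had 938.559. In summed normalised counts, Col1a1, Col1a2 and Col3a1 held 89.9% of the members' total in young tissue and 86.1% in aged tissue. The share of Col1a1 alone went from 30.4% to 17.5%, and that of Col1a2 from 37.7% to 47.1%, while Col3a1 kept 21.8% and 21.5%. The summed mean of all 10 was 266052 normalised counts in young and 61272.2 in aged tissue. That was 1.44% of the normalised counts of all genes in young and 0.308% in aged tissue. These shares rest on worked-out means and carry no error.

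**Figure D2:**
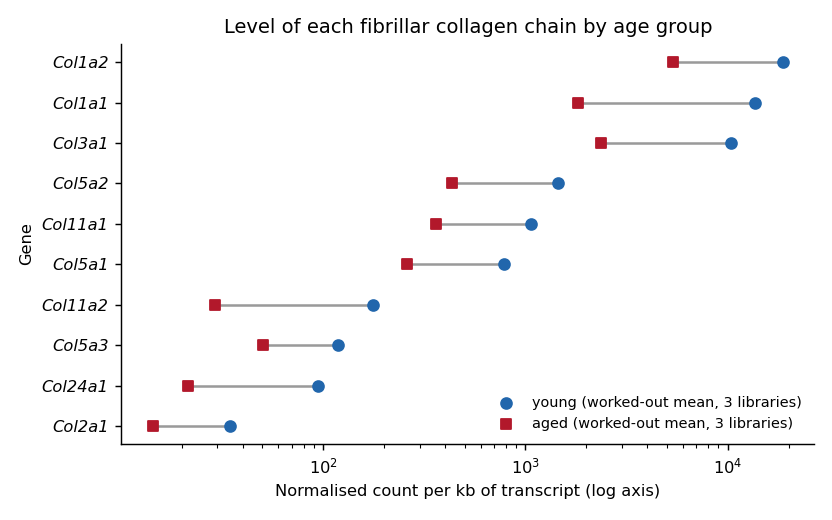
The x axis (log scale) gives the worked-out mean normalised count per kb of transcript in young (circle) and aged (square) tissue for each gene on the y axis; the file gives no spread for these means. Col1a2 is highest in both age groups, and Col1a1 moves from above Col3a1 in young tissue (13650.8 against 10417.4) to below it in aged tissue (1812.23 against 2366.96).

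Type V collagen copolymerises with type I inside the fibril, where its retained end domain limits fibril width. Col5a2 (chr1:45374321-45503282, minus strand) went from 9561.13 to 2874.78 normalised counts, a log2 change of -1.73 (SE 0.14, adjusted p = 9.77e-31, DESeq2 Wald test). Col5a1 (chr2:27886425-28039514, plus strand), the chain present in nearly every type V trimer, went from 6620.76 to 2183.48, a log2 change of -1.60 (SE 0.14, adjusted p = 5.98e-28, DESeq2 Wald test). These partners were not told apart: the difference was -0.13, with an interval of -0.53 to 0.26. Per kb, Col5a1 stood at 0.546 of Col5a2 in young and 0.599 in aged tissue, and undivided at 0.692 and 0.760. Col5a3 (chr9:20770050-20815067, minus strand), a chain of narrower distribution, went from 720.898 to 308.821, a log2 change of -1.22 (SE 0.16, adjusted p = 2.4e-13, DESeq2 Wald test). It fell less than Col5a2, with a difference of -0.51 (Col5a2 minus Col5a3, interval -0.93 to -0.09), whereas against Col5a1 the interval held 0 (-0.38, -0.79 to 0.03).

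Type XI collagen is the partner of type II in cartilage and vitreous, and its alpha 1 chain also joins type V chains elsewhere. Col11a1 (chr3:114030540-114220718, plus strand) went from 8155.62 to 2759.33 normalised counts, a log2 change of -1.56 (SE 0.14, adjusted p = 9.62e-26, DESeq2 Wald test). Col11a2 (chr17:34039437-34066685, plus strand) went from 952.41 to 157.914, a log2 change of -2.59 (SE 0.21, adjusted p = 6.57e-32, DESeq2 Wald test). The alpha 2 chain was both the scarcer and the one that fell further, with a difference of -1.03 (Col11a2 minus Col11a1, interval -1.53 to -0.53). Per kb, Col11a1 exceeded Col11a2 by 6.02 times in young and 12.3 times in aged tissue, and undivided by 8.56 and 17.5 times. Col11a1 was at the level of a type V chain, at 1.35 times Col5a1 in young and 1.39 times in aged tissue per kb (undivided, 1.23 and 1.26 times).

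Type II collagen comes from Col2a1 (chr15:97975602-98004695, minus strand), the cartilage chain, which was the scarcest member at a baseMean of 125. Its worked-out mean went from 176.101 to 73.3535 normalised counts, a log2 change of -1.26 (SE 0.28, adjusted p = 7.66e-05, DESeq2 Wald test). The SE was the largest of the 10, and the 95% interval of the fold ran from 1.65 to 3.49 times lower. Its change could not be told from that of Col11a1, with a difference of -0.30 (Col11a1 minus Col2a1, interval -0.91 to 0.31), but Col11a2 fell further, with -1.33 (Col11a2 minus Col2a1, interval -2.01 to -0.65). At this level, transcripts of the type XI alpha 1 chain exceeded those of its cartilage partner in both age groups, with 1063.73 against 34.5025 per kb in young tissue.

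Type XXIV collagen is encoded by Col24a1 (chr3:145292472-145552011, plus strand), which spans 259540 bases, the longest gene of the set. It went from 674.667 to 153.313 normalised counts, a log2 change of -2.14 (SE 0.18, adjusted p = 2.67e-31, DESeq2 Wald test). Its closest relative, Col27a1, was not among the chosen genes and has a similarly interrupted helix with a longest run of 217 triplets. Col27a1 had a similar baseMean (427 against 414) but went only from 538.494 to 314.94, a log2 change of -0.77 (SE 0.17, adjusted p = 0.000118, DESeq2 Wald test). Col24a1 minus Col27a1 was -1.36, with an interval of -1.85 to -0.88. With Col27a1 added, the median of the family was -1.73.

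In order of change, the members ran Col1a1, Col11a2, Col3a1, Col24a1, Col1a2, Col5a2, Col5a1, Col11a1, Col2a1 and Col5a3. No neighbours in this order differed beyond their errors, since each of the 9 intervals between neighbours held 0. The order of change was not the order of level: Col1a2, the most abundant, was the fifth by change, and Col11a2 and Col24a1, with baseMeans of 555 and 414, fell by more than it did in value. Col11a2 minus Col1a2 was -0.79 (interval -1.30 to -0.28), while for Col24a1 minus Col1a2 the interval held 0 (-0.34, -0.79 to 0.11). The order of level over both age groups together was the same for all 10 by baseMean, per kb of transcript and per kb of coding sequence. Within the age groups it differed at 2 places: Col1a1 and Col11a2 stood above Col3a1 and Col5a3 in young tissue and below them in aged tissue (Col11a2 952.41 against Col5a3 720.898 normalised counts in young, 157.914 against 308.821 in aged). The SE of 2 of the 10 lay below the median SE of genes within 2-fold of their baseMean: Col3a1 with 0.125 against 0.145 and Col5a3 with 0.156 against 0.163.

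Among the 12716 genes tested with a baseMean of at least 100, Col1a1 had the 4th most negative fold change and Col11a2 the 6th. Col3a1 and Col24a1 were 13th and 14th and Col1a2 34th, and the last of the members, Col5a3, was 143rd. By baseMean, Col1a2 was the 14th of all 33924 genes, Col1a1 the 23rd and Col3a1 the 32nd.

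**Figure D3:**
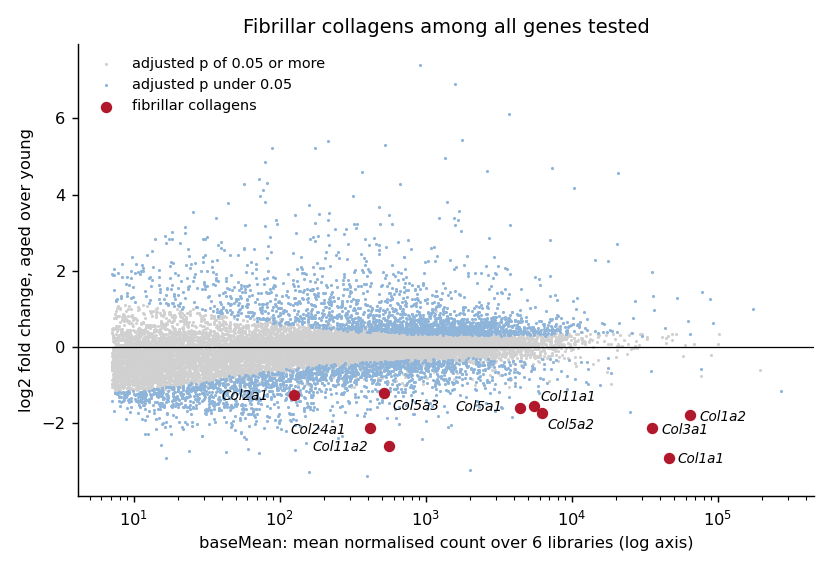
Each point is a gene with an adjusted p, with its baseMean on the x axis (log scale) and its log2 fold change of aged over young on the y axis; blue points passed an adjusted p under 0.05, grey ones did not, and red points are the fibrillar collagens. The 10 members lie along the lower edge of the cloud at baseMeans from 125 to 64562.

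The members lie on 8 chromosomes. Col3a1 and Col5a2 are the only direct neighbours among them: their genes face each other tail to tail on chromosome 1 with 24614 bases and no annotated gene between them, and their log2 fold changes were -2.14 and -1.73. Reads of the members were largely their own by sequence. The share of 31-base words of a member's principal transcript that also occur in another gene's annotated transcripts was 0% in Col1a2, Col2a1, Col5a2, Col11a1, Col11a2 and Col24a1, and at most 2.21%, in Col5a1. In Col3a1 it was 2.01%, all of it shared with an annotated microRNA precursor near its 5′ end, Gm47302. On the opposite strand, Col5a1 overlaps 2810430I11Rik and Gm13372, with baseMeans of 20.1 and 12.1. Col24a1 overlaps 9530034A14Rik and Col5a3 overlaps Gm26274 there, neither listed in the table. The kit was stranded, but whether the quantification used the strand is not given in the sources used here.

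The start-site regions of the members were read for common promoter letters, which does not test why the members were lower. RefSeq windows of GRCm38.p6 (250 bases before to 50 after the start) were found for 7 of the 10 and not for Col1a1, Col2a1 and Col5a2. The searched letters were CCAAT (read by NF-Y), GGGCGG (read by SP1 and relatives) and TATAAA, each on both strands, and the matches of different motifs did not overlap. CCAAT was in 3 of the 7 windows and in 37.4% of all 32851 windows, GGGCGG in 5 of 7 and in 35.7%, and TATAAA in 2 of 7 and in 13.6%. The window of Col24a1 held none of the 3. The stretches outside annotated exons are printed for the type III chain and for the alpha 2 chain of type I, since these abundant partners carried different letters; capitals mark the motif.
Col1a2, chr6:4505370-4505492, plus strand, GGGCGG: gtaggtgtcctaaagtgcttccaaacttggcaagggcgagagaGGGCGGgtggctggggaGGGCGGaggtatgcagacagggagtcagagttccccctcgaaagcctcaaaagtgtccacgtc
Col3a1, chr1:45311288-45311537, plus strand, TATAAA: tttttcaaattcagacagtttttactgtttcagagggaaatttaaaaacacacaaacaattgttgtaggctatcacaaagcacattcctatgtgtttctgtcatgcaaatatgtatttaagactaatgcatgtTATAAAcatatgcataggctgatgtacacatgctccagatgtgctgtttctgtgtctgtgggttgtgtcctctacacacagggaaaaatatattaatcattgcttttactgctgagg
Counted from the RefSeq start site, the GGGCGG matches of Col1a2 begin at -205 and -188, and its window also holds CCAAT at -109 and the reverse of CCAAT at the start itself. By GENCODE M21, 127 of the 250 bases before that start lie in annotated exons, the CCAAT at -109 among them. The annotated gene begins at 4504814, so the printed Col1a2 stretch lies inside the gene. The TATAAA of Col3a1 begins at -117. A match is a match of letters and was not tested as a binding site.

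The genes that act on fibrillar collagens did not fall as a block. Of 90 genes in 7 lists, 84 had an adjusted p, and 28 were lower and 15 higher in aged tissue, against 9.92% lower and 11.3% higher of all genes tested. The counts of each list below stand beside these same shares. Among 17 genes of chain modification, folding and secretion, 7 were lower and 1 higher, and the median was -0.10. Just 2 of these 8 calls were left with a fold change of at least 1 in size required. Sparc, a secreted collagen-binding chaperone, had a log2 change of -1.72 (SE 0.14, adjusted p = 3.57e-30, DESeq2 Wald test). Serpinh1, the collagen-specific chaperone HSP47, had -0.85 (SE 0.15), a smaller change than any member. P4ha3, a prolyl hydroxylase subunit, had -1.49 (SE 0.34) at a baseMean of 32.8. P4ha1 and P4ha2, the main catalytic subunits of that enzyme, had -0.10 and -0.05 and did not pass the test. The 1 gene that was higher was Tmem38b (0.68, SE 0.16), a potassium channel of the endoplasmic reticulum.

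In the removal of the procollagen end pieces, 5 of 8 genes were lower and none higher, with a median of -0.91. Adamts2, which cuts the amino end of procollagens I, II and III, had -1.16 (SE 0.14, adjusted p = 2.76e-14, DESeq2 Wald test). Pcolce2, an enhancer of carboxyl-end cleavage, had -1.11 (SE 0.17), and Bmp1, the protease that makes that cleavage, had -0.72 (SE 0.14). The others were Adamts14 (-1.14) and Tll2 (-1.30), at baseMeans of 28.8 and 8.81, and these calls were lost at an adjusted p under 0.01, which left 3. Pcolce, the most abundant of the list, had -0.14 (SE 0.13) and did not pass.

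Of the 5 lysyl oxidases, which cross-link fibrils, 1 was lower, beside 9.92% of all genes tested, a count that is no result for the list. It was Loxl2, at -1.16 (SE 0.13, adjusted p = 2.84e-18, DESeq2 Wald test). Lox, the most abundant of them, had 0.17 (SE 0.15) and Loxl4 -0.43 (SE 0.19), and neither passed, although Loxl4 passed as lower (-0.49) after centring on abundant genes. Of 18 partners in fibril assembly, 10 were lower and 1 higher, with a median of -0.51. Requiring a fold change of at least 1 in size left 5 of these 11 calls. Postn, a matrix protein that binds type I collagen and BMP1, had -1.84 (SE 0.13), and the small leucine-rich proteoglycans Aspn and Fmod had -1.33 (SE 0.13) and -1.02 (SE 0.15). Dcn, the most abundant member of that proteoglycan family here, was higher, at 0.51 (SE 0.13, adjusted p = 0.00139, DESeq2 Wald test).

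In the list of fibril degradation and uptake, the genes that differed were mostly higher. Of 11, 8 had an adjusted p, and 4 were higher and 1 lower, with a median of 0.55. Mmp3, stromelysin 1, went from 543.445 to 14163.2 normalised counts, a log2 change of 4.70 (SE 0.19, adjusted p = 7.77e-138, DESeq2 Wald test). The fibril-cutting collagenases Mmp13 and Mmp8 had 1.99 (SE 0.27) and 2.08 (SE 0.39) at baseMeans of 83.1 and 24.1, and the membrane-bound Mmp14 had 0.86 (SE 0.15). Fap, a fibroblast surface protease, was lower at -0.46 (SE 0.17), a call lost at an adjusted p under 0.01. Requiring a fold change of at least 1 in size left 3 of the 5 calls of this list. Mmp1a and Mmp1b had a baseMean of 0, and Mmp2 had a fold change of -0.46 but no p-value in the table.

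Of 9 collagen receptors, 2 were lower and 2 higher, with a median of 0.11, beside 9.92% lower and 11.3% higher of all genes tested. After centring on abundant genes Itga1 (-0.26, SE 0.12 before centring) was called lower too. The collagen-binding integrin chains Itga2 and Itga11 had -1.31 (SE 0.25) and -0.75 (SE 0.20). Lair1, an inhibitory receptor of immune cells, had 1.91 (SE 0.14, adjusted p = 1.1e-39, DESeq2 Wald test). Ddr2, a receptor kinase for fibrillar collagen, had 0.36 (SE 0.12), a call lost at an adjusted p under 0.01. Itgb1, the beta chain that pairs with the collagen-binding integrin alpha chains and the most abundant of the list, had 0.07 (SE 0.13) and did not pass. Of 19 regulators of collagen transcription and mRNA, 7 were higher and 2 lower, with a median of 0.11. Ctgf, a matrix protein induced by TGF-beta, had 0.99 (SE 0.16, adjusted p = 8.85e-09, DESeq2 Wald test). The TGF-beta receptor Tgfbr1 had 0.91 (SE 0.15) and the ligand Tgfb3 0.68 (SE 0.12). The lower genes were Nfyc, a subunit of NF-Y, at -0.78 (SE 0.18) and Tgfb2 at -0.35 (SE 0.13), a call lost at an adjusted p under 0.01 and without the filter on low values. The NF-Y subunits Nfya and Nfyb had 0.26 (SE 0.14) and -0.04 (SE 0.15), and Sp1 had -0.01 (SE 0.12), none of which passed. With a fold change of at least 1 in size required, 0 of the 9 calls of this list were left.

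**Figure D4:**
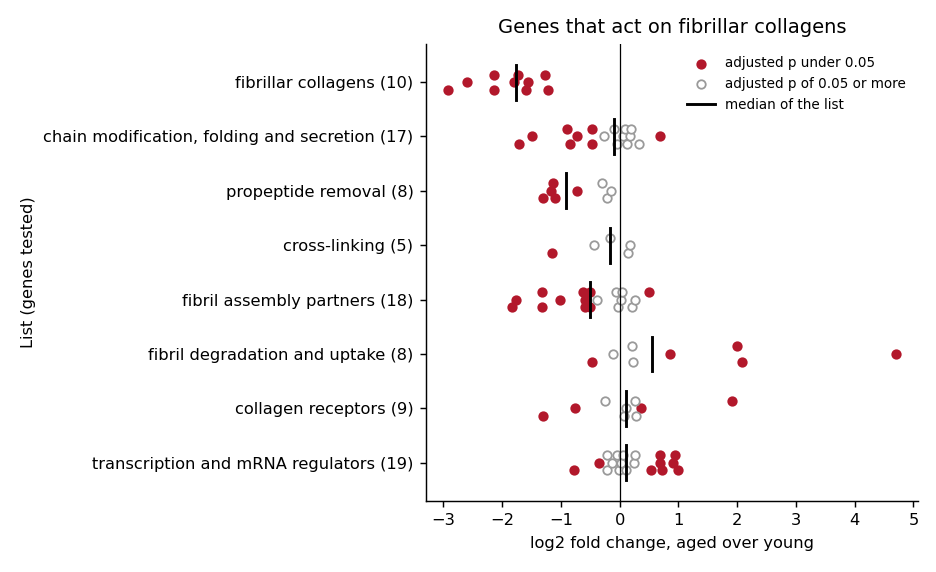
Each point is a gene with its log2 fold change of aged over young on the x axis, grouped by list on the y axis with the number of genes tested; filled points passed an adjusted p under 0.05 and black bars are list medians. The fibrillar collagens have a median of -1.77, propeptide removal -0.91, and fibril degradation and uptake 0.55.

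Lower levels were not restricted to the fibrillar chains. Besides Col27a1, the table holds 32 other collagen chains by symbol, a group put together after the values had been seen, and 18 were lower, 1 higher and 13 not called, with a median of -0.70, beside 9.92% lower and 11.3% higher of all genes tested. The list of fibril assembly partners also holds Col9a1, Col9a2, Col9a3, Col12a1, Col14a1 and Col16a1, so the counts overlap. Of the 32, 7 had a fold change at or below that of Col5a3, the member that changed least. The furthest was Col6a6, a beaded-filament chain, at -3.30 (SE 0.24). The fibril-surface chains Col9a1 and Col9a2 had -1.77 (SE 0.43) and -1.32 (SE 0.26), and the basement-membrane chains Col4a5 and Col4a6 had -1.58 (SE 0.37) and -1.26 (SE 0.40). In contrast, the main vascular basement-membrane chains Col4a1 and Col4a2 had -0.21 (SE 0.15) and -0.26 (SE 0.16), and neither passed. The endothelial chain Col8a2, with a baseMean of 26816, had 0.03 (SE 0.15) and did not pass. The other type VIII chain, Col8a1, was lower at -0.57 (SE 0.14) with a baseMean of 17661. Col4a3 and Col4a4 were lower too, at -0.91 (SE 0.16) and -0.82 (SE 0.15). The 1 chain that was higher was Col10a1, at 0.50 (SE 0.16, adjusted p = 0.0142, DESeq2 Wald test).

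**Figure D5:**
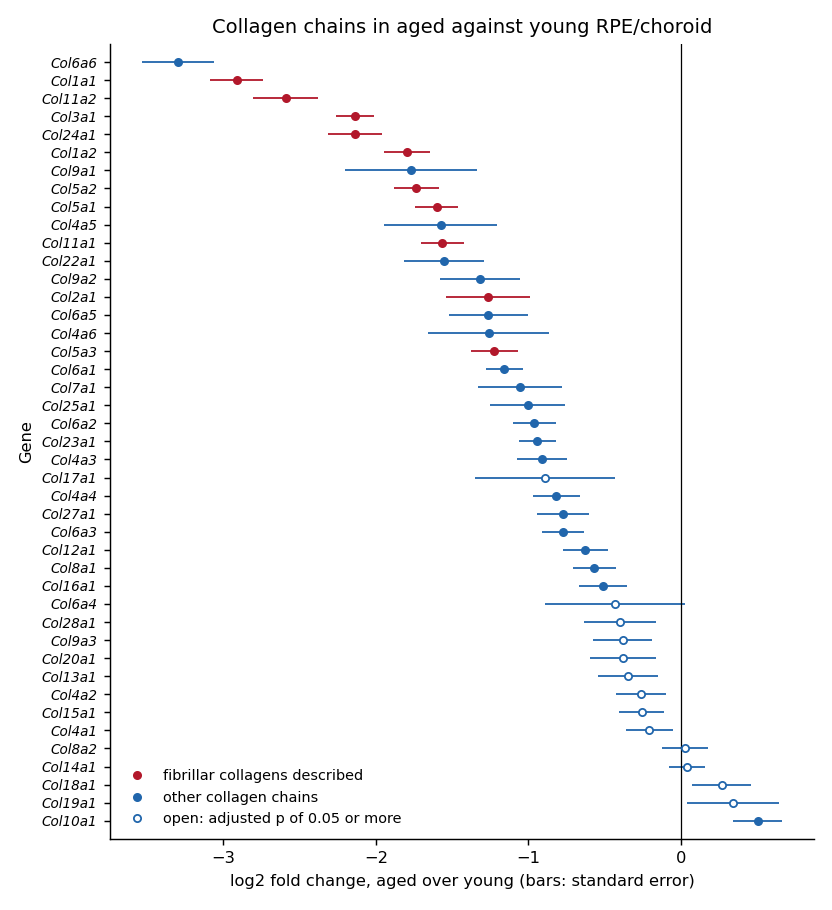
The x axis gives the log2 fold change of aged over young with its SE (bars) for all 43 collagen chains on the y axis, with the 10 members in red, the others, Col27a1 among them, in blue, and open symbols for an adjusted p of 0.05 or more. Col6a6 (-3.30) lies furthest left, the 10 members fill most of the places after it, and Col10a1 (0.50) lies furthest right.

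The cell types that could supply these transcripts were read from marker lists, whose counts stand beside the same 9.92% lower and 11.3% higher of all genes tested. Of 10 fibroblast markers, 5 were lower and 3 higher, and their summed mean was 19330.5 normalised counts in young and 18919.2 in aged tissue. The most abundant of them, Pdgfra and Fbln1, had 0.21 (SE 0.14, not passing) and 0.38 (SE 0.12). Clec3b and Dpt, named after their values were seen, had -2.07 (SE 0.22) and -1.82 (SE 0.27) at baseMeans of 136 and 379. Besides Fbln1, the higher genes were Cygb and Dpep1, with 1.01 (SE 0.14) and 0.69 (SE 0.15) at baseMeans of 2679 and 462. Of 8 cartilage markers, 7 had an adjusted p, 5 were lower and 1 higher, and the sum went from 2736.67 to 2896.5. The defining marker Acan, the cartilage proteoglycan, had -2.79 (SE 0.32) at a baseMean of 71.9, Chad had -1.32 (SE 0.23), and Comp, the most abundant of the list, had 0.97 (SE 0.16). The bone markers Bglap, Ibsp and Dmp1 had baseMeans of 0.353, 0.20 and 2.28, near 0, and of the 4 genes tested in the bone and tendon list 2 were lower (sum 4282.67 to 3241.77). The sum of 5 corneal markers went from 11472.7 to 6016.9 with 1 lower, Kera, a proteoglycan of the corneal stroma. Kera went from 724.896 to 69.6036 normalised counts, a log2 change of -3.38 (SE 0.41, adjusted p = 1.58e-14, DESeq2 Wald test), the most negative of all 18636 genes tested and further than any member. The median SE of the 5 was 0.45, larger than that of any member. Of 9 pericyte and smooth muscle markers, 4 were lower and none higher, with sums of 41948.5 and 41054.9. The lower genes were the contractile smooth muscle genes Myh11 (-1.19, SE 0.20), Cnn1 (-1.12, SE 0.25), Acta2 (-0.94, SE 0.14) and Tagln (-0.84, SE 0.17), while Rgs5, the most abundant of the list, had 0.32 (SE 0.18) and did not pass. Of 8 proliferation markers, 1 was lower (sum 1191.68 to 903.88), near the share of all genes. Their fold changes ran from -0.77 to -0.06 with a median of -0.41, and 3 were lower at an unadjusted p under 0.05.

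Markers of the tissue itself, and of the retina, muscle, nerve and immune cells that it can carry, were read in the same way. RPE markers were all present, with 2 of the 6 tested higher (Rgr and Best1) and a sum of 269393 in young and 331904 in aged tissue; Rgr had 0.63 (SE 0.18) and Ttr 0.08 (SE 0.18). Of 5 pigment cell markers 1 was lower (sum 238812 to 214807), of 8 endothelial markers tested 1 was lower (22866.2 to 21904.9), and of 6 skeletal muscle markers tested 1 was lower (109534 to 108169), counts of 1 gene that are no result beside the share of all genes. None of 8 rod markers (92489.2 to 111404) and none of 7 Schwann cell markers tested (7421.42 to 7383.19) was called in the DESeq2 test, although at an unadjusted p under 0.05 the first list had 0 and the second 2. Of 8 macrophage markers 6 were higher and none lower, with sums of 11057.9 and 26464.9. The part of these lists in the lower collagen levels was not tested. The sclera, which borders the tissue that was taken, has no list of its own here, and how much of it each library held is not known.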

How the data were processed

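Libraries from 3 young and 3 aged mice were compared. Per the labels and the study's methods, the authors trimmed reads with BBDuk, mapped them with STAR to Ensembl transcripts of GRCm38, used Sailfish for abundances, which were scaled to total count, and ran DESeq2. The deposited table gives the mean signal over libraries (baseMean, a normalised count), log2 fold changes with SE, the Wald score, and p-values. These are results of the authors' own comparison. The counts could not be refitted, since the table has no value per library; Wald tests against other limits and adjustments were computed from its fold changes and SEs. Its sign is not stated and was read as young over aged, because 1849 positive and 2100 negative calls equal the split the study gives for young against aged; it was then reversed. All directions rest on this. The median SE was 0.239 for genes with a baseMean under 2 and 0.433 for tested genes under 30; an SE that falls at the lowest counts marks fold changes shrunken toward 0, so the printed folds, intervals and group means are shrunken estimates, which understate group differences. Wald p-values and adjustments recomputed from the columns differed by at most 0.572%. The table gives no depth per library; the baseMeans sum to 1.92e+07. Of the genes, 7243 had a baseMean of 0 and 7885 a p without an adjusted p. The members and lists were chosen with earlier results of these data known. Replicates are separate mice.

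Intervals are the estimate with 95% Wald limits. Differences between genes treat the errors as independent, although the genes share libraries, and carry no p. Lengths are those of GENCODE M21 principal transcripts, since the RefSeq tables used here give only genomic spans. The rank correlation of baseMean with transcript length was 0.29 over 13968 genes (a description across genes), but the study's methods give TPM, a unit divided by transcript length, as Sailfish's output before scaling to counts. Values per kb may therefore be divided by length once too often, and ratios between genes are also given undivided. Sequences come from GENCODE M21 and RefSeq promoters (GRCm38.p6). Genes named are all members, Col27a1, the 3 lowest adjusted p-values and the most abundant gene of each pathway list, and up to 2 abundant genes of each marker list; others complete a count, are partners of a named enzyme or were chosen after their values were seen. Older symbols (Ctgf) stand for some genes, and Colgalt1, Colgalt2 and Mia3 have no row under theirs. Calls used an adjusted p under 0.05. Alternatives were an adjusted p under 0.01, a log2 fold change of at least 1 in size, a Wald test against 1, no filter on low values and centring on genes with a baseMean of at least 100. Calculations used Python 3.11.15, pandas 2.3.3, numpy 2.4.6 and scipy 1.17.1, and the recomputed tests were checked on simulated data.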

Additional observations from a re-analysis of the deposited data

How the results depend on the processing

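All 10 members stayed lower and called at an adjusted p under 0.01, with a log2 fold change of at least 1 in size, without a filter on low values and after centring on genes with a baseMean of at least 100. In the Wald test against 1, 8 members passed, and Col2a1 and Col5a3 did not. The members' median was -1.77, -1.83 after centring and -1.73 with Col27a1 added. Beside 43 calls in the pathway lists there were 34 at an adjusted p under 0.01, 17 with a fold change of at least 1 in size and 5 in the Wald test against 1, the stricter settings by construction; without a filter on low values there were 42 and after centring 45. At an adjusted p under 0.01 the calls of Adamts14, Tll2, Fap, Ddr2, Tgfb2, Fkbp10, Larp6, Lepre1 and Tnxb were lost, Tgfb2 also without the filter, and after centring Loxl4 and Itga1 were called lower. Centring shifted every fold change by -0.06, which turned the sign of 5 genes that were not called: Bgn (-0.0452), Col14a1 (-0.0244), Ppib (-0.00344), Runx2 (-0.0372) and Smad2 (-0.0145).

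No paired analysis was possible because single libraries have no values here. Leaving out a replicate, another normalisation and another test of the counts were not run, as each needs values of single libraries. The depth of single libraries, which limits the scarcest member, Col2a1, is not in the table.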
